A study of Mus musculus with 8 samples.

Results

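The hypoxia-induced genes followed here are Hif1a, which encodes the oxygen-labile subunit of the transcription factor HIF-1, and 8 genes that HIF is known to induce when oxygen is low: Egln1, Egln3, Pdk1, Bnip3, Bnip3l, Vegfa, Ddit4 and P4ha1. They were taken by name from the deposited count table. The names were chosen with earlier results of these data known, so counts and ranks of these genes are descriptions. The genes are 9 of the 32499 in the table, and each of the 9 passed the filter on low counts that left 12970 genes for testing. RNA sequencing was carried out on total RNA of mouse pre-B cells, B-lineage precursors grown from C57BL/6 bone marrow, that had been transduced with lentivirus and sorted for GFP. The 8 libraries fell into 4 groups of 2: cells with TCF3-ZNF384, cells with TAF15-ZNF384, cells with full-length ZNF384 (the label reads ZNF384 Wild Type), and cells with the empty vector. ZNF384 is a zinc finger transcription factor, and its fusions to TCF3 and TAF15 occur in acute leukaemia. The 3 proteins carried an HA tag, and every group, the empty vector cells included, lacked Arf, a tumour suppressor product of Cdkn2a. The promoter that drove the constructs, the age of the animals, the number of clones and the oxygen level of the cultures are not given in the sources used here.

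With oxygen present, the prolyl hydroxylases of the Egln family mark HIF alpha subunits for capture by the VHL ubiquitin ligase and for destruction, so HIF-1 is controlled mainly through the stability of the Hif1a protein. When oxygen falls, the subunit persists, pairs with Arnt and binds short DNA elements with the core ACGTG or GCGTG near its targets. The best known targets shift metabolism from respiration to glycolysis, remove mitochondria, signal for new vessels and lower growth signalling, and they include Egln1 and Egln3 themselves. RNA counts do not measure the Hif1a protein or HIF activity, and several of these genes also answer to other factors.

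The start-site regions of 5 of the genes are shown because Bnip3, Pdk1 and Egln3 were highest with full-length ZNF384 and lowest with the empty vector, while Vegfa and Ddit4 were highest with the empty vector. Each run holds 250 bases before and 10 bases after a start site from the RefSeq table for GRCm38.p6, written 5′ to 3′ on the strand of the gene. The coordinates are those of an exact and unique match in mm9, the build of the counts. Capitals mark ACGTG or GCGTG on either strand, which read CACGT or CACGC where the core lies on the other strand.
Bnip3, chr7:146101180-146101439, minus strand: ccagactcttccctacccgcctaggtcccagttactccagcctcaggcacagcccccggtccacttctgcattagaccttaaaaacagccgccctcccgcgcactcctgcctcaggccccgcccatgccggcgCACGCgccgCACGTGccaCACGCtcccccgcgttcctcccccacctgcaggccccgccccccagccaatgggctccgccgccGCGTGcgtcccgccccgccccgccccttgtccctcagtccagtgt
Pdk1, chr2:71711031-71711290, plus strand: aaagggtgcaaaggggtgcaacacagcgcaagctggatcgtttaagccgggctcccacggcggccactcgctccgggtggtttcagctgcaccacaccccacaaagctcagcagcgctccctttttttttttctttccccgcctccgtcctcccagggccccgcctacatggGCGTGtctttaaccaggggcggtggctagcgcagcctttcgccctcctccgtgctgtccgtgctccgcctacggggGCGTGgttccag
Egln3, chr12:55304852-55305111, minus strand: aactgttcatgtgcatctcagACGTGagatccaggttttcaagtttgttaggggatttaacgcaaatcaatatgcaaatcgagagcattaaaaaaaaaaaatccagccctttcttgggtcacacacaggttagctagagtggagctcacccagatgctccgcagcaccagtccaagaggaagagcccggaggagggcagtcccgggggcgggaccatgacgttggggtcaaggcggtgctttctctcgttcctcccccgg
Vegfa, chr17:46169317-46169576, minus strand: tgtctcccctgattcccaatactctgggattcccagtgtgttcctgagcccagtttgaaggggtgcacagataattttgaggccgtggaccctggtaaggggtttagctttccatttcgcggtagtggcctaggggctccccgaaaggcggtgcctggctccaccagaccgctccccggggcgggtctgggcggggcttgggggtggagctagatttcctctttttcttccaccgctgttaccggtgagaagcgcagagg
Ddit4, chr10:59414509-59414768, minus strand: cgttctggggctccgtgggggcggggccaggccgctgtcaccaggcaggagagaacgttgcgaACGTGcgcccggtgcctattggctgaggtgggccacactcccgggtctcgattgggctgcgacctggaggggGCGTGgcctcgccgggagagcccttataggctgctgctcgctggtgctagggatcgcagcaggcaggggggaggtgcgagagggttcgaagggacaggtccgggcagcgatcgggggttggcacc

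Bnip3 held 5 cores in this stretch, of which the ACGTG on both strands 107 and 108 bases before the start share the palindrome CACGTG. Pdk1 held GCGTG 78 and 2 bases before its start, Egln3 held a single ACGTG 229 bases before it, and Ddit4 held ACGTG 187 bases and GCGTG 115 bases before its start. The Vegfa stretch shown held neither core, and a second Vegfa start in the table, inside the gene, held 1 of each. Start-site windows were found for 8 of the 9 genes. Shares over all promoters were counted in full windows, which for the genes shown held 300 bases, 250 before and 50 after the start. Of all 32851 promoters in the table, 43.8% held at least 1 of the cores, as did 61.8% of the 11453 that belong to tested genes. A match is a description of the letters and not of binding. Cores lay in the stretches of Bnip3, Pdk1 and Egln3 and in that of Ddit4, which moved the other way, but not in the Vegfa stretch shown.

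Total counts per library ran from 9381954 to 41483660, and the lowest count of any of the 9 genes was 49, for Egln3 in a TCF3-ZNF384 library. Zfp384, the mouse gene whose reads can include those of the introduced ZNF384 sequence, was 511 and 450 CPM (counts relative to the library size, which was scaled by TMM) with TCF3-ZNF384, 185 and 162 CPM with TAF15-ZNF384, 51.1 and 90.2 CPM with full-length ZNF384, and 24.0 and 21.6 CPM with the empty vector. All 11 pre-B cell markers in the table were detected in every library, at a summed 5764 to 6452 CPM. Cd24a was the largest part (1594 to 2167 CPM), and the sum does not show that each marker was level. Over the 8 libraries Cd79b ran from 472 to 567 CPM, Igll1 from 481 to 974 CPM, Blnk from 23.8 to 124 CPM and Cd22 from 4.2 to 21.9 CPM. A group of 5 abundant non-coding genes took 10.9 to 12.5% of the counts with full-length ZNF384 and 18.5 to 33.2% in the other 6 libraries. The columns of the 6 construct libraries end in a suffix that those of the empty vector do not have, and any separate handling this may mark cannot be told apart from the group. The 3 comparisons with the empty vector share its 2 libraries, and likewise those with full-length ZNF384.

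Hif1a RNA stayed in a narrow range. Its level was 33.9 and 31.3 CPM with TCF3-ZNF384, 30.3 and 35.6 CPM with TAF15-ZNF384, 35.1 and 33.7 CPM with full-length ZNF384, and 29.2 and 29.9 CPM with the empty vector. Every construct library lay above both empty vector libraries, yet none of the 6 comparisons passed an adjusted p of 0.05 in edgeR's quasi-likelihood test with Benjamini-Hochberg adjustment. The largest difference, full-length ZNF384 over the empty vector, was a log2 fold change of 0.22 ± 0.11 (SE) with a 95% interval of -0.01 to 0.44 and an adjusted p of 0.16. The interval of TCF3-ZNF384 over the empty vector was -0.10 to 0.37, and that of TAF15-ZNF384 over the empty vector was -0.08 to 0.40. Hif1a lies at chr12:75002362-75048517 on the plus strand of mm9, and it is the only one of the 9 genes whose annotated span overlaps another gene, the non-coding Gm15283 on the opposite strand. The span of Gm15283 covers 5351 of the 5896 exon bases of Hif1a. The strand setting of the count step is not given, and any effect of the overlap on the Hif1a counts was not tested.

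Egln1 encodes the main HIF prolyl hydroxylase, and its RNA was lower with both fusions. Libraries with TCF3-ZNF384 held 82.5 and 77.5 CPM, those with TAF15-ZNF384 106 and 108 CPM, those with full-length ZNF384 176 and 148 CPM, and those with the empty vector 162 and 139 CPM. The 4 fusion libraries lay below the other 4, TCF3-ZNF384 below TAF15-ZNF384, and the full-length ZNF384 and empty vector libraries overlapped. With TCF3-ZNF384, Egln1 had a log2 fold change of -0.92 ± 0.11 against the empty vector (adjusted p = 3.07e-05) and of -1.02 ± 0.11 against full-length ZNF384 (adjusted p = 7.76e-06). With TAF15-ZNF384 the values were -0.50 ± 0.11 against the empty vector (adjusted p = 0.012), lost without replicate 1 of the empty vector at -0.39 (adjusted p = 0.159), and -0.60 ± 0.11 against full-length ZNF384 (adjusted p = 0.00116). The 2 fusions differed by -0.42 ± 0.11, TCF3-ZNF384 over TAF15-ZNF384 (adjusted p = 0.0318). Full-length ZNF384 over the empty vector gave 0.11 with an interval of -0.13 to 0.34. Egln1 lies at chr8:127432496-127473154 on the minus strand.

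Egln3, a second HIF hydroxylase and a gene strongly induced by hypoxia in many cells, was higher with every construct. It had 4.51 and 5.38 CPM with TCF3-ZNF384, 5.55 and 5.39 CPM with TAF15-ZNF384, 9.31 and 10.9 CPM with full-length ZNF384, and 2.62 and 3.10 CPM with the empty vector. Full-length ZNF384 stood above all other libraries, both fusions stood between, and the empty vector was below them all. The log2 fold change over the empty vector was 1.81 ± 0.18 for full-length ZNF384 (adjusted p = 1.95e-05), 0.93 ± 0.22 for TAF15-ZNF384 (adjusted p = 0.014) and 0.81 ± 0.21 for TCF3-ZNF384 (adjusted p = 0.00802). Against full-length ZNF384, Egln3 differed by -1.005 ± 0.18 with TCF3-ZNF384 (adjusted p = 0.00057), and TAF15-ZNF384 gave -0.88 ± 0.19 (adjusted p = 0.00365). The fusions did not differ past the threshold, with an interval of -0.59 to 0.33 for TCF3-ZNF384 over TAF15-ZNF384. Egln3 was the lowest of the 9 genes per kilobase of exon, at 1.86, 2.05, 3.79 and 1.08 CPM per kb in the TCF3-ZNF384, TAF15-ZNF384, full-length ZNF384 and empty vector groups. With libraries thinned to equal totals, its calls over the empty vector were lost for TAF15-ZNF384 (adjusted p = 0.065) and TCF3-ZNF384 (adjusted p = 0.0739), and the TCF3-ZNF384 call was also lost without its replicate 2 (adjusted p = 0.122) and without replicate 1 of the empty vector (adjusted p = 0.0697). Egln3 lies at chr12:55279968-55304847 on the minus strand.

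Egln2, the remaining hydroxylase gene of the family and not among the 9, is known to respond little to hypoxia, and it rose with the fusions, by 0.42 ± 0.10 with TAF15-ZNF384 (adjusted p = 0.016) and by 0.32 ± 0.10 with TCF3-ZNF384 (adjusted p = 0.0236) over the empty vector. In raw counts within each library, which no scaling can alter, there were 54.7 and 69.5 counts of Egln3 per 1000 counts of Egln1 with TCF3-ZNF384, 52.5 and 49.9 with TAF15-ZNF384, 52.9 and 73.3 with full-length ZNF384, and 16.2 and 22.3 with the empty vector. These ratios, and those of Bnip3 and Pdk1 to Vegfa, were chosen after the values were seen and are given as a description. The ratios of TCF3-ZNF384 and full-length ZNF384 overlapped, both TAF15-ZNF384 libraries lay just below them, and all 6 construct libraries lay above the empty vector. The ratio was reached through higher Egln3 with level Egln1 in full-length ZNF384 cells, and through higher Egln3 with lower Egln1 in cells with either fusion.

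Pdk1 encodes a kinase that inactivates pyruvate dehydrogenase and so keeps pyruvate out of the mitochondrial citrate cycle. It was 78.2 and 73.1 CPM with TCF3-ZNF384, 51.1 and 53.0 CPM with TAF15-ZNF384, 115 and 136 CPM with full-length ZNF384, and 48.5 and 44.7 CPM with the empty vector. No libraries of different groups overlapped, in the order full-length ZNF384, TCF3-ZNF384, TAF15-ZNF384 and empty vector. Pdk1 rose by 1.43 ± 0.11 with full-length ZNF384 (adjusted p = 1.85e-06) and by 0.70 ± 0.11 with TCF3-ZNF384 (adjusted p = 0.000225) over the empty vector. The TAF15-ZNF384 value of 0.16 ± 0.11 did not pass (adjusted p = 0.385, interval -0.08 to 0.40), so these neighbours in the order were not told apart. TCF3-ZNF384 over TAF15-ZNF384 gave 0.54 ± 0.11 (adjusted p = 0.00649). Against full-length ZNF384, Pdk1 differed by -0.73 ± 0.11 with TCF3-ZNF384 (adjusted p = 8.77e-05), and TAF15-ZNF384 gave -1.27 ± 0.11 (adjusted p = 2.66e-06). Pdk1 lies at chr2:71711281-71741915 on the plus strand.

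Bnip3 and Bnip3l encode related proteins of the outer mitochondrial membrane that bind LC3-type proteins and lead mitochondria into autophagy. Bnip3 was 39.1 and 37.2 CPM with TCF3-ZNF384, 37.4 and 39.9 CPM with TAF15-ZNF384, 70.5 and 86.8 CPM with full-length ZNF384, and 27.0 and 24.9 CPM with the empty vector. The fusion libraries overlapped each other and lay between full-length ZNF384 and the empty vector. Over the empty vector, Bnip3 rose by 1.60 ± 0.12 with full-length ZNF384 (adjusted p = 1.79e-06), a fold of 3.02, by 0.57 ± 0.12 with TAF15-ZNF384 (adjusted p = 0.008) and by 0.55 ± 0.12 with TCF3-ZNF384 (adjusted p = 0.00272). Against full-length ZNF384 it differed by -1.04 ± 0.12 with TCF3-ZNF384 (adjusted p = 8.21e-06), and TAF15-ZNF384 gave -1.02 ± 0.12 (adjusted p = 2.93e-05). TCF3-ZNF384 over TAF15-ZNF384 gave -0.02, with an interval of -0.28 to 0.24. Bnip3 lies at chr7:146082519-146101202 on the minus strand.

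Bnip3l, known for clearing mitochondria from maturing red cells, moved less. It was 26.3 and 26.2 CPM with TCF3-ZNF384, 18.7 and 19.8 CPM with TAF15-ZNF384, 24.7 and 30.1 CPM with full-length ZNF384, and 22.8 and 18.0 CPM with the empty vector. The TAF15-ZNF384 and empty vector libraries overlapped, as did those of TCF3-ZNF384 and full-length ZNF384, and the second pair lay above the first. Full-length ZNF384 raised Bnip3l by 0.42 ± 0.13 over the empty vector (adjusted p = 0.0356), a call that was lost in DESeq2's Wald test (adjusted p = 0.0841), with total-count scaling (adjusted p = 0.0651), when only the 2 groups were fitted (adjusted p = 0.114) and in 6 of the 8 fits that left out a library. TAF15-ZNF384 over full-length ZNF384 gave -0.51 ± 0.14 (adjusted p = 0.0153), which was lost without either TAF15-ZNF384 library and without replicate 2 of full-length ZNF384, at -0.34 to -0.56, and with total-count scaling, at -0.37 (adjusted p = 0.0799). The gains of TCF3-ZNF384, 0.36 ± 0.14 over the empty vector (adjusted p = 0.0541) and 0.45 ± 0.15 over TAF15-ZNF384 (adjusted p = 0.0727), did not pass, although both did when either full-length ZNF384 library was left out. Both also passed with no filter (adjusted p = 0.0371 and 0.0201) and when only the 2 groups were fitted (adjusted p = 0.0261 and 0.0108). The first passed too with the filter of 2 CPM in 2 libraries (adjusted p = 0.0451), with total-count scaling (adjusted p = 0.017) and without replicate 1 of the empty vector, at 0.54. Bnip3l lies at chr14:67604076-67627714 on the minus strand.

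Vegfa, the secreted growth factor that drives vessel formation, moved the other way. It was 48.9 and 57.0 CPM with TCF3-ZNF384, 85.4 and 88.9 CPM with TAF15-ZNF384, 88.5 and 111 CPM with full-length ZNF384, and 139 and 162 CPM with the empty vector. All 6 construct libraries were below both empty vector libraries, and the TCF3-ZNF384 libraries were below the other 6. Vegfa fell by 1.50 ± 0.13 on the log2 scale with TCF3-ZNF384 (adjusted p = 1.01e-06), by 0.79 ± 0.13 with TAF15-ZNF384 (adjusted p = 0.00129) and by 0.59 ± 0.12 with full-length ZNF384 (adjusted p = 0.00402), each against the empty vector. The last of these missed the threshold without replicate 2 of the empty vector, at -0.47 (adjusted p = 0.0721). TCF3-ZNF384 gave -0.91 ± 0.13 over full-length ZNF384 (adjusted p = 6.69e-05) and -0.71 ± 0.13 over TAF15-ZNF384 (adjusted p = 0.00291). TAF15-ZNF384 and full-length ZNF384 overlapped, with an interval of -0.47 to 0.08, and this difference passed without replicate 1 of full-length ZNF384, at -0.33 (adjusted p = 0.0298). Vegfa lies at chr17:46153942-46169326 on the minus strand.

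**Figure D1:**
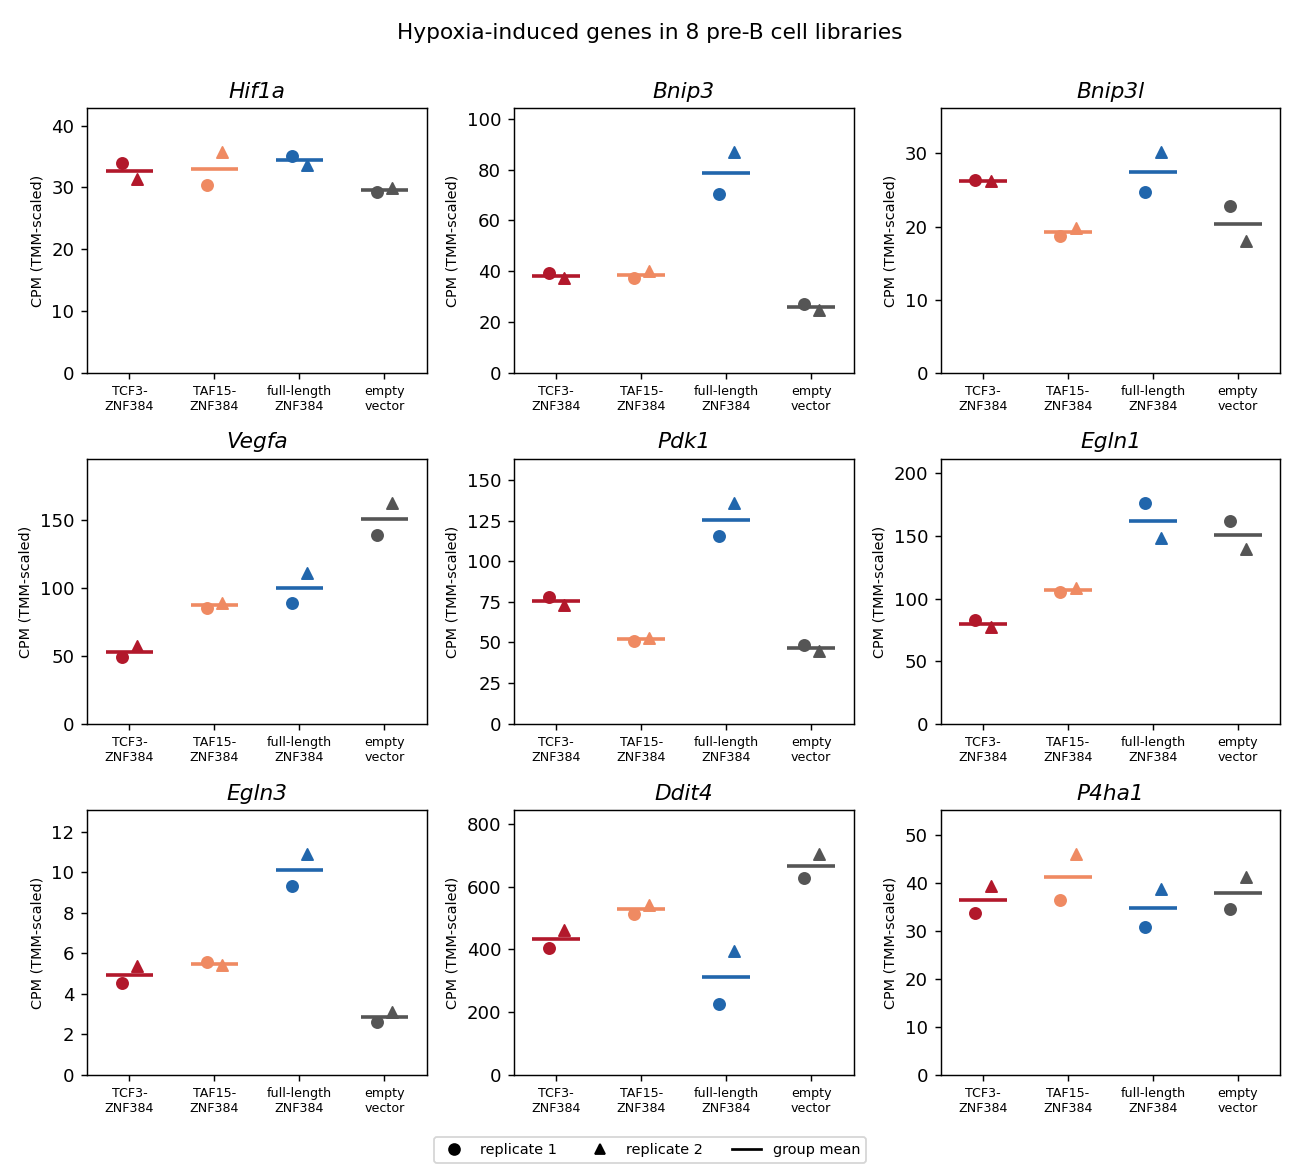
Level of each of the 9 genes in CPM on TMM-scaled library sizes (linear axes from 0), with circles for replicate 1, triangles for replicate 2 and bars for the mean of the 2 libraries of a group. Bnip3, Pdk1 and Egln3 are highest with full-length ZNF384 and lowest with the empty vector, Vegfa and Ddit4 are highest with the empty vector, and Egln1 is lowest with TCF3-ZNF384.

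Within each library, Bnip3 stood at 80.0 and 65.3 counts per 100 counts of Vegfa with TCF3-ZNF384, 43.8 and 44.9 with TAF15-ZNF384, 79.7 and 78.1 with full-length ZNF384, and 19.5 and 15.4 with the empty vector. Pdk1 stood at 160.1 and 128 counts per 100 of Vegfa with TCF3-ZNF384, 59.9 and 59.6 with TAF15-ZNF384, 130.2 and 122 with full-length ZNF384, and 35.0 and 27.6 with the empty vector. Both ratios were above the empty vector in all 6 construct libraries. TCF3-ZNF384 and full-length ZNF384 overlapped in these ratios although each of the genes was lower with TCF3-ZNF384 than with full-length ZNF384.

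**Figure D2:**
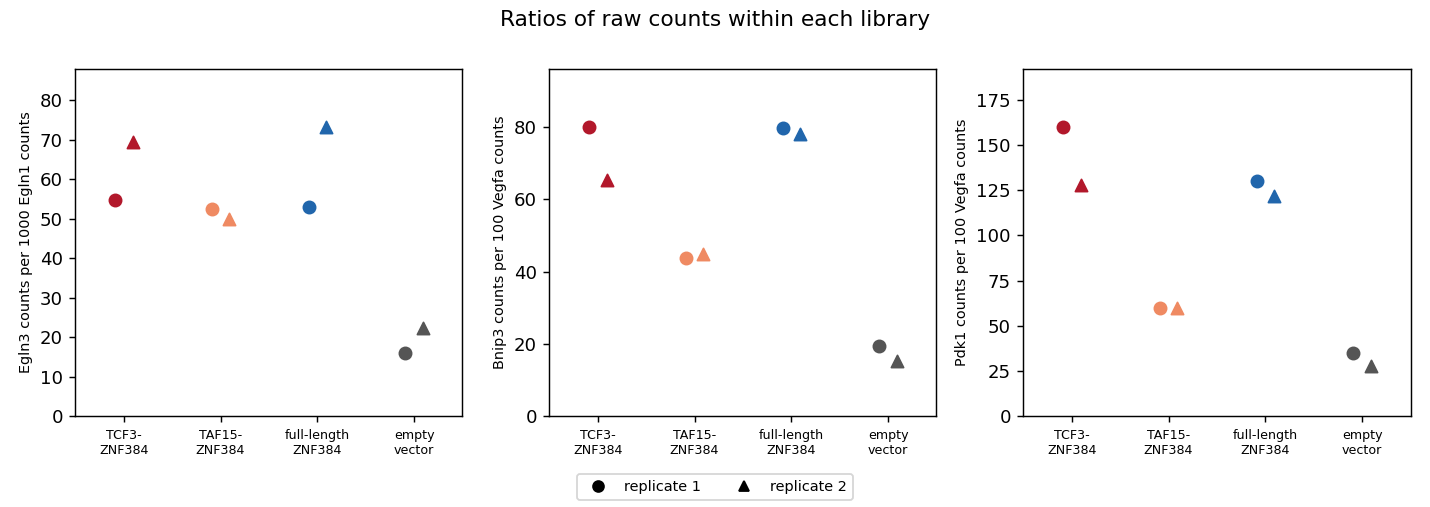
Ratios of raw counts in each of the 8 libraries, by group, for Egln3 to Egln1 (per 1000 counts), Bnip3 to Vegfa and Pdk1 to Vegfa (per 100 counts), with circles for replicate 1 and triangles for replicate 2. The empty vector libraries are the lowest in each panel, at 16.2 and 22.3 for Egln3 to Egln1, 19.5 and 15.4 for Bnip3 to Vegfa and 35.0 and 27.6 for Pdk1 to Vegfa.

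Ddit4, also named REDD1, restrains mTORC1 through the TSC complex under hypoxia and other stresses. It was by far the most abundant of the 9 per kilobase of exon, with means of 257 CPM per kb with TCF3-ZNF384, 313 with TAF15-ZNF384, 185 with full-length ZNF384 and 395 with the empty vector. Its level was 404 and 462 CPM with TCF3-ZNF384, 514 and 542 CPM with TAF15-ZNF384, 227 and 395 CPM with full-length ZNF384, and 627 and 703 CPM with the empty vector. No libraries of different groups overlapped, and the order was empty vector, TAF15-ZNF384, TCF3-ZNF384 and full-length ZNF384. The 2 full-length ZNF384 libraries differed by a ratio of 1.74, the widest gap between replicates for any of the 9 genes in any group. Ddit4 fell by 1.10 ± 0.23 on the log2 scale with full-length ZNF384 against the empty vector (adjusted p = 0.0135), and TAF15-ZNF384 over full-length ZNF384 gave 0.77 ± 0.23 (adjusted p = 0.0367).

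The other differences of Ddit4 did not pass in the main analysis, with -0.62 ± 0.23 for TCF3-ZNF384 (adjusted p = 0.074) and -0.33 ± 0.23 for TAF15-ZNF384 (adjusted p = 0.4) over the empty vector. Leaving out replicate 1 of full-length ZNF384 kept these values and moved both past the threshold, at -0.62 (adjusted p = 2.57e-06) for TCF3-ZNF384 and -0.33 (adjusted p = 0.00433) for TAF15-ZNF384, and leaving out replicate 2 did the same. Both also passed with no filter (adjusted p = 1.72e-06 for TCF3-ZNF384 and 0.0291 for TAF15-ZNF384) and when only the 2 groups were fitted (adjusted p = 4.35e-05 and 0.00359). TCF3-ZNF384 over TAF15-ZNF384 gave -0.29 ± 0.23 (adjusted p = 0.519). It passed when only the 2 groups were fitted (adjusted p = 0.00441) and when either full-length ZNF384 library was left out. TCF3-ZNF384 over full-length ZNF384 gave 0.48 ± 0.23 (adjusted p = 0.125), and 0.95 without replicate 2 of full-length ZNF384. With no filter it passed, at 0.47 (adjusted p = 0.000432). The TAF15-ZNF384 call over full-length ZNF384 was lost without either TAF15-ZNF384 library, at 0.72 to 0.79, and at 0.80 to 0.89 with total-count scaling (adjusted p = 0.0816), with libraries thinned to equal totals (adjusted p = 0.0662) and when only the 2 groups were fitted (adjusted p = 0.0566). The fall with full-length ZNF384 missed the threshold without replicate 2 of the empty vector, at -1.01 (adjusted p = 0.0565), and with total-count scaling, at -1.11 (adjusted p = 0.064). Ddit4 lies at chr10:59412423-59414518 on the minus strand.

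P4ha1, a catalytic subunit of the enzyme that hydroxylates collagen in the endoplasmic reticulum, also showed no difference past the threshold in the main analysis. It was 33.7 and 39.5 CPM with TCF3-ZNF384, 36.4 and 46.0 CPM with TAF15-ZNF384, 30.8 and 38.8 CPM with full-length ZNF384, and 34.7 and 41.3 CPM with the empty vector. The groups overlapped in every comparison. TAF15-ZNF384 over full-length ZNF384 gave 0.25 ± 0.15 (adjusted p = 0.209), which passed without replicate 2 of full-length ZNF384, at 0.44 (adjusted p = 0.0252). Against the empty vector the intervals were -0.36 to 0.27 for TCF3-ZNF384, -0.20 to 0.44 for TAF15-ZNF384 and -0.44 to 0.17 for full-length ZNF384. P4ha1 lies at chr10:58786044-58836052 on the plus strand.

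Set side by side, the 9 genes did not move as a block in any comparison. With full-length ZNF384 over the empty vector, 4 of the 9 rose (Bnip3, Pdk1, Egln3 and Bnip3l), where 10.8% of all tested genes rose, and 2 fell (Vegfa and Ddit4), where 9.87% of all tested genes fell. Egln3, Bnip3 and Pdk1 ranked 77, 106 and 148 by log2 fold change among the 12970 tested genes. The median of the 9 was 0.22, and that of all tested genes was 0.03. With TAF15-ZNF384 over the empty vector, 2 of the 9 rose (Bnip3 and Egln3) against a background of 5.01%, and 2 fell (Vegfa and Egln1) against 6.01%. The median of the 9 was 0.12, and 0.01 over all tested genes. These TAF15-ZNF384 calls rested on both libraries, since Vegfa was the only one of the 4 past the threshold when either TAF15-ZNF384 library was left out, and Bnip3 and Vegfa were the 2 past it without replicate 1 of the empty vector (Vegfa, Egln1 and Egln3 the 3 without its replicate 2).

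With TCF3-ZNF384 over the empty vector, 3 of the 9 rose (Bnip3, Pdk1 and Egln3) against a background of 16.2%, and 2 fell (Vegfa and Egln1) against 17.0%. Vegfa ranked 12692 of 12970 in that comparison. The median of the 9 was 0.14, and 0.01 over all tested genes. With 9 genes, counts of this size say little beyond the identity and the size of the changes.

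**Figure D3:**
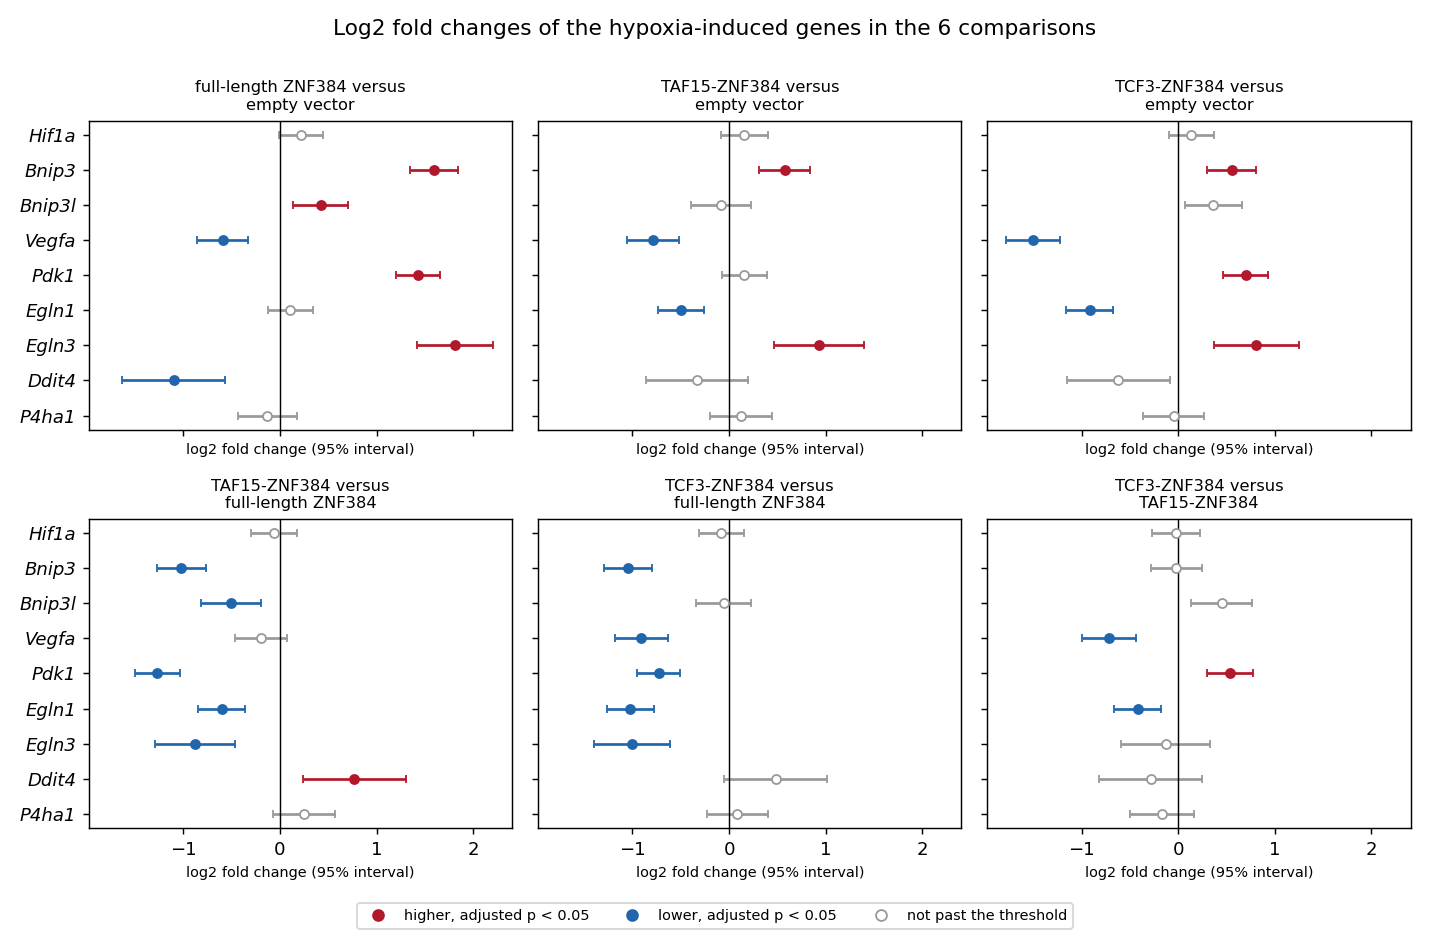
Log2 fold changes of the 9 genes from edgeR in the 6 comparisons, first-named group over second-named, with 95% intervals; red is higher and blue lower at an adjusted p under 0.05, and open grey circles did not pass. The largest positive values are those of Egln3 (1.81), Bnip3 (1.60) and Pdk1 (1.43) with full-length ZNF384 over the empty vector, and the largest negative value is that of Vegfa with TCF3-ZNF384 over the empty vector (-1.50).

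Between the constructs, most differences put full-length ZNF384 above the fusions. With TCF3-ZNF384 over full-length ZNF384, 5 of the 9 were lower (Bnip3, Vegfa, Pdk1, Egln1 and Egln3), where 23.4% of all tested genes were lower. None was higher in the main edgeR fit, at an unadjusted p under 0.05 (0 genes) or in DESeq2 or limma-voom (0 genes each), where 22.2% of all tested genes were higher in edgeR. Ddit4 was called higher in edgeR with no filter, at 0.47 (adjusted p = 0.000432), and with the replicate block, at 0.51 (adjusted p = 0.0142). Without replicate 2 of full-length ZNF384 it stood at 0.95. With TAF15-ZNF384 over full-length ZNF384, 5 were lower (Bnip3, Bnip3l, Pdk1, Egln1 and Egln3) against a background of 17.9%, and Ddit4 was the 1 that was higher, against 15.4%. The medians of the 9 were -0.73 with TCF3-ZNF384 and -0.51 with TAF15-ZNF384, and those of all tested genes were 0.00 and -0.02. With TCF3-ZNF384 over TAF15-ZNF384, 1 gene was higher (Pdk1) against a background of 5.91%, and 2 were lower (Vegfa and Egln1) against 4.17%. None of these 3 calls remained in edgeR without replicate 1 of TCF3-ZNF384 or without replicate 2 of TAF15-ZNF384, where 4 of the 9 had an unadjusted p under 0.05, Vegfa alone remained without replicate 1 of TAF15-ZNF384, and Vegfa and Pdk1 remained without replicate 2 of TCF3-ZNF384.

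No other gene of the HIF machinery passed with full-length ZNF384 over the empty vector. Of 17 genes for HIF subunits, hydroxylases, the VHL complex and coactivators, 15 were tested, of which Hif1a, Egln1 and Egln3 belong to the 9. Egln3 was the only one of the 15 to pass over the empty vector with full-length ZNF384, where 10.8% of all tested genes rose and 9.87% fell. The list's median was -0.03 against 0.03 for all tested genes. With TCF3-ZNF384, 6 of the 15 rose over the empty vector, where 16.2% of all tested genes rose, and 2 fell, where 17.0% fell, with a median of 0.14 against 0.01. Those that rose were Egln3, Egln2, Arnt, the partner of Hif1a, by 0.65 ± 0.16 (adjusted p = 0.00632), the coactivators Ep300 by 0.41 ± 0.10 (adjusted p = 0.00752) and Crebbp by 0.37 ± 0.10 (adjusted p = 0.00974), and Cited2, which competes with HIF for those coactivators, by 0.36 ± 0.11 (adjusted p = 0.0232). Egln1 fell, as did Tceb2 (elongin B of the VHL complex), by 0.39 ± 0.13 (adjusted p = 0.0318), a call lost in DESeq2 and with total-count scaling. With TAF15-ZNF384, Egln3 and Egln2 rose and Egln1 fell, where 5.01% of all tested genes rose and 6.01% fell.

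None of the following passed over the empty vector with any construct: Vhl, at 106, 103 and 87.1 CPM with TCF3-ZNF384, TAF15-ZNF384 and full-length ZNF384 against 97.4 CPM with the empty vector; Hif1an, the asparagine hydroxylase of HIF, at 197, 170.1 and 171 CPM against 183 CPM; and Epas1, which encodes HIF-2 alpha, at 0.488, 1.18 and 0.212 CPM against 0.692 CPM. The scaffold and ring subunits of the ligase, Cul2 and Rbx1, and elongin C (Tceb1) did not pass either, with log2 fold changes between -0.22 and 0.25. Hif3a and Arnt2 were too low to be tested.

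Of 32 other known HIF targets outside glycolysis, 24 were tested. With full-length ZNF384, 6 rose over the empty vector, among them Mif, a cytokine, by 0.86 ± 0.10 (adjusted p = 4.25e-05), Gys1, glycogen synthase, by 0.77 ± 0.10 (adjusted p = 0.000127), and Tfrc, the transferrin receptor, by 0.59 ± 0.10 (adjusted p = 0.000732). Of the circadian and hypoxia-linked repressors, Bhlhe40 fell by 1.67 ± 0.12 (adjusted p = 1.79e-06) and Bhlhe41 fell by 1.46 ± 0.13 (adjusted p = 7.66e-06). These 6 higher and 2 lower of the 24 stand beside 10.8% higher and 9.87% lower among all tested genes. The median of the 24 was 0.17, against 0.03 for all tested genes. Both repressors fell with the fusions too, Bhlhe40 by 1.42 ± 0.12 with TCF3-ZNF384 (adjusted p = 1.05e-06), and in TAF15-ZNF384 cells it fell by 0.89 ± 0.12 (adjusted p = 0.000349). With TCF3-ZNF384, 3 rose (Ndrg1, Kdm4b and Wsb1) and 5 fell, Mif among them at -0.76 ± 0.10 (adjusted p = 4.76e-05), against 16.2% higher and 17.0% lower among all tested genes, and the median was 0.02. With TAF15-ZNF384, the 2 repressors were the only calls, and none rose in edgeR, where 2 had an unadjusted p under 0.05 (1 rose in DESeq2 and none in limma-voom). Of all tested genes, 5.01% rose and 6.01% fell in that comparison.

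Genes of glycolysis, the pathway that Pdk1 favours, rose mainly with full-length ZNF384, while 9 of 19 fell with TCF3-ZNF384 and 4 of 19 with TAF15-ZNF384. Of 20 listed, 19 were tested, and with full-length ZNF384 12 rose and 1 fell over the empty vector (10.8% and 9.87% of all tested genes), with a median of 0.69 against 0.03 for all tested genes. Pfkl, a phosphofructokinase, rose by 1.85 ± 0.11 (adjusted p = 1.21e-06), Tpi1, triose phosphate isomerase, by 1.52 ± 0.14 (adjusted p = 9.96e-06) and Eno1, enolase, by 1.36 ± 0.11 (adjusted p = 5.11e-06), while Pfkfb4 fell by 1.28 ± 0.34 (adjusted p = 0.0172). With TCF3-ZNF384, 9 of the 19 fell, where 17.0% of all tested genes fell, and none rose in edgeR (0 at an unadjusted p under 0.05, 0 in DESeq2), with a median of -0.45. Pfkp fell by 1.15 ± 0.12 (adjusted p = 4.75e-06), Pgk1 by 0.77 ± 0.12 (adjusted p = 0.000283) and Ldha by 0.79 ± 0.13 (adjusted p = 0.000463). With TAF15-ZNF384, 4 fell (2 with total-count scaling, 3 in limma-voom), where 6.01% of all tested genes fell, and none rose in edgeR (0 at an unadjusted p under 0.05, 0 in DESeq2), with a median of -0.20. Pdk1 itself was higher than the empty vector with TCF3-ZNF384 while these 9 glycolytic genes were lower. Against full-length ZNF384 directly, 14 of the 19 were lower and 1 was higher with TCF3-ZNF384, and 13 were lower and 1 was higher with TAF15-ZNF384. Among all tested genes, 23.4% were lower and 22.2% higher with TCF3-ZNF384, and 17.9% and 15.4% with TAF15-ZNF384.

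**Figure D4:**
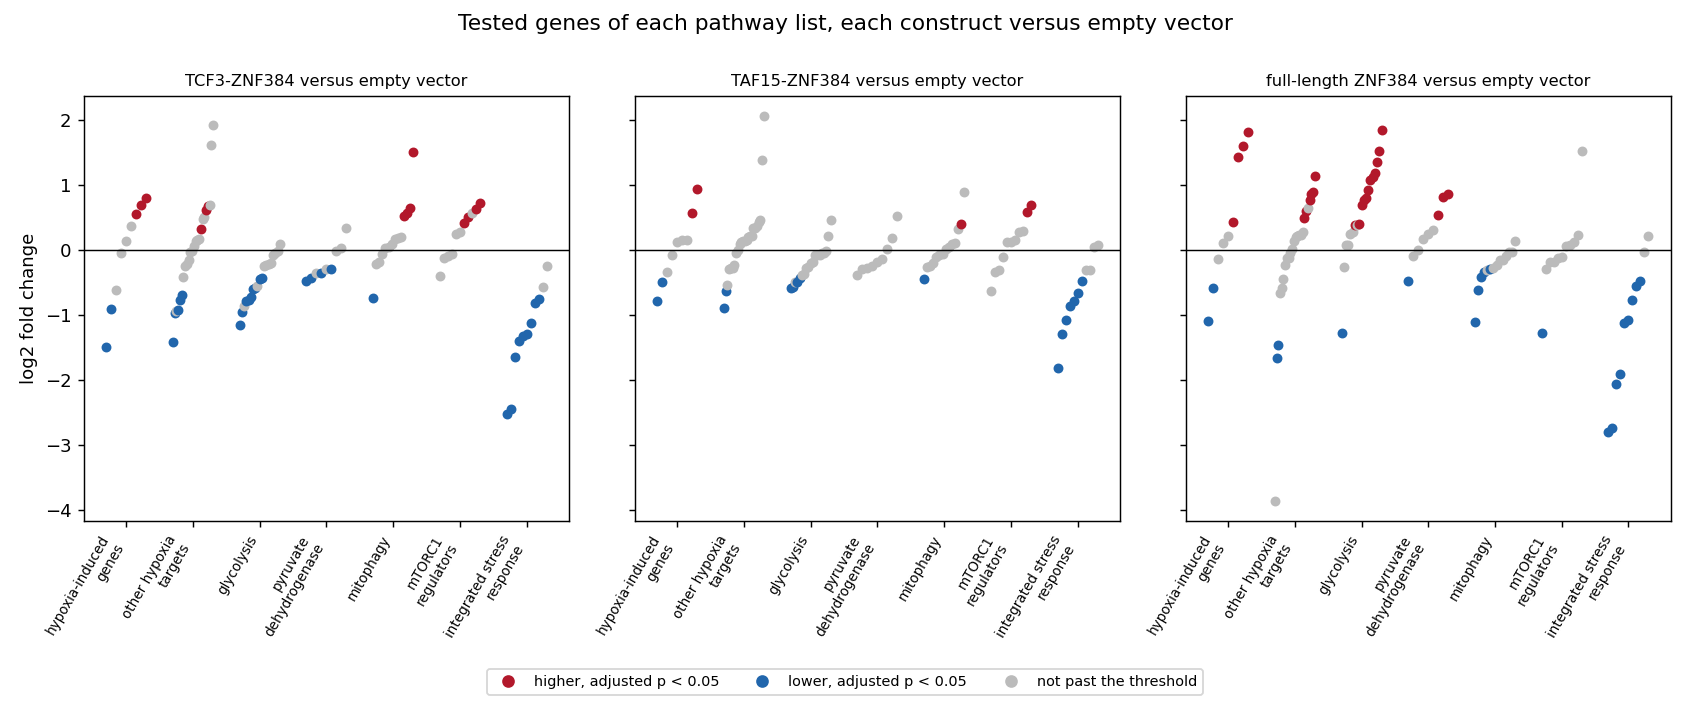
Log2 fold changes over the empty vector of the 9 hypoxia-induced genes and of the tested genes of 6 pathway lists, each point a gene ordered by value within its list, for TCF3-ZNF384, TAF15-ZNF384 and full-length ZNF384. Red and blue are higher and lower at an adjusted p under 0.05; 12 of 19 glycolytic genes are red with full-length ZNF384, 9 of 19 are blue with TCF3-ZNF384, and of 11 integrated stress response genes 9 are blue with TCF3-ZNF384, 7 with TAF15-ZNF384 and 9 with full-length ZNF384.

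The pathways that the other members act in were followed in the same way. Of 11 pyruvate dehydrogenase genes besides Pdk1, 9 were tested, and with full-length ZNF384 3 rose, the subunit gene Pdha1 by 0.81 ± 0.09, the kinase gene Pdk3 by 0.86 ± 0.11 and the phosphatase gene Pdp2 by 0.53 ± 0.10, while the subunit gene Pdhb fell by 0.49 ± 0.11. With TCF3-ZNF384, 4 of the 9 fell (2 with total-count scaling), Pdk3 by 0.47 ± 0.11 and Dlat by 0.43 ± 0.12 among them, and none rose in edgeR (1 at an unadjusted p under 0.05, 0 in DESeq2). With TAF15-ZNF384 none passed in edgeR, although 1 was higher and 4 were lower at an unadjusted p under 0.05, and DESeq2 called 1 lower. The medians were 0.24, -0.30 and -0.19 with full-length ZNF384, TCF3-ZNF384 and TAF15-ZNF384, against 0.03, 0.01 and 0.01 for all tested genes. Among all tested genes, 10.8% rose and 9.87% fell with full-length ZNF384, 16.2% and 17.0% with TCF3-ZNF384, and 5.01% and 6.01% with TAF15-ZNF384.

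Of 16 mitophagy and autophagy genes besides Bnip3 and Bnip3l, 14 were tested. With full-length ZNF384, where Bnip3 rose most, 5 of them fell over the empty vector (3 in DESeq2), among them the receptor gene Optn by 0.62 ± 0.14, Phb2 by 0.34 ± 0.10 and Map1lc3b by 0.41 ± 0.13, and none rose in edgeR (0 at an unadjusted p under 0.05, 0 in DESeq2). With TCF3-ZNF384, 4 rose, among them Sqstm1, the cargo receptor p62, by 0.65 ± 0.12, Ulk1, which starts autophagy, by 0.52 ± 0.11 and Map1lc3a by 1.51 ± 0.32, and Phb2 fell by 0.73 ± 0.10. With TAF15-ZNF384, Ulk1 rose by 0.39 ± 0.11 in edgeR, a call made in neither DESeq2 nor limma-voom, and Phb2 fell by 0.45 ± 0.10. The medians were -0.26, 0.13 and -0.02 with full-length ZNF384, TCF3-ZNF384 and TAF15-ZNF384, against 0.03, 0.01 and 0.01 for all tested genes. The shares of all tested genes that rose and fell were 10.8% and 9.87%, 16.2% and 17.0%, and 5.01% and 6.01%, in the same order.

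Of the 9 genes of the VEGF family and its receptors besides Vegfa, 4 were tested. Vegfb, a relative of Vegfa, stood at 15.1, 16.1 and 18.3 CPM with TCF3-ZNF384, TAF15-ZNF384 and full-length ZNF384 against 16.8 CPM with the empty vector. In full-length ZNF384 cells, Vegfc fell by 1.04 ± 0.34 (adjusted p = 0.0466), at 1.58 against 3.14 CPM, and Pgf passed as lower at 0.0437 against 0.838 CPM (adjusted p = 0.00588), levels too low for a useful fold. DESeq2 and total-count scaling each called 1 gene of the list lower there. No gene of this list passed with either fusion in edgeR or DESeq2, with 2 lower at an unadjusted p under 0.05 for TCF3-ZNF384 and 0 for TAF15-ZNF384. Among all tested genes, 10.8% rose and 9.87% fell with full-length ZNF384, 16.2% and 17.0% with TCF3-ZNF384, and 5.01% and 6.01% with TAF15-ZNF384.

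Around Ddit4, 11 of 12 other mTORC1 regulators were tested. With TCF3-ZNF384 4 rose, among them Mtor by 0.72 ± 0.10, Tsc1 by 0.63 ± 0.12 and Sesn1 by 0.50 ± 0.14, and with TAF15-ZNF384 2 rose, Mtor by 0.69 ± 0.11 and Tsc2 by 0.58 ± 0.14. With full-length ZNF384, Sesn2, a stress-induced inhibitor of mTORC1, was the only call and fell by 1.27 ± 0.18 (adjusted p = 0.00101). Of all tested genes, 16.2% rose with TCF3-ZNF384, 5.01% rose with TAF15-ZNF384 and 9.87% fell with full-length ZNF384. Genes of the integrated stress response, which also induces Ddit4 and Vegfa through Atf4, fell with every construct: 9 of 11 with full-length ZNF384, 7 of 11 with TAF15-ZNF384 and 9 of 11 with TCF3-ZNF384, with medians of -1.08, -0.66 and -1.29. Of all tested genes, 9.87%, 6.01% and 17.0% fell in the same order of constructs, and their medians were 0.03, 0.01 and 0.01. Trib3, a pseudokinase gene of the integrated stress response, fell by 2.44 ± 0.14 with TCF3-ZNF384 and by 1.82 ± 0.13 with TAF15-ZNF384. In full-length ZNF384 cells Trib3 fell by 1.91 ± 0.13. Ddit3, the CHOP gene, fell by 2.74 ± 0.15 with full-length ZNF384, and Asns, asparagine synthetase, by 1.65 ± 0.11 with TCF3-ZNF384 and by 1.08 ± 0.10 with TAF15-ZNF384. None of the 11 rose in edgeR or DESeq2 with any construct, and 1 was higher at an unadjusted p under 0.05 with full-length ZNF384 (0 with either fusion).

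Among 6 tested collagen hydroxylase genes of 9 besides P4ha1, P4hb, which encodes the partner subunit of P4ha1, rose by 0.31 ± 0.09 with full-length ZNF384 (adjusted p = 0.0257) and fell by 0.45 ± 0.09 with TCF3-ZNF384 (adjusted p = 0.00202), and in TAF15-ZNF384 cells it fell by 0.34 ± 0.09 (adjusted p = 0.0304). It was the only call of this list over the empty vector with each construct, and with total-count scaling the TAF15-ZNF384 call was lost. Of all tested genes, 10.8% rose with full-length ZNF384, 17.0% fell with TCF3-ZNF384 and 6.01% fell with TAF15-ZNF384.

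The 9 genes were also compared by profile, as the root mean square difference of log2 CPM, centred on each gene's mean, over the 8 libraries. Bnip3 and Egln3 were the nearest pair, at 0.18, and Bnip3 and Pdk1 stood at 0.21, and Egln3 and Ddit4 were the farthest pair of all, at 1.05. Among the tested genes other than the 9, Scd1, a fatty acid desaturase gene, was nearest to both Bnip3 (0.13) and Egln3 (0.21) and the third nearest to Pdk1 (0.15). St3gal2 was nearest to Pdk1 (0.14) and the third nearest to Bnip3 (0.21), and Idh1, cytosolic isocitrate dehydrogenase, was second nearest to Bnip3 (0.19). Vegfa was nearest to Efcab11 (0.11), Shmt2, the mitochondrial serine hydroxymethyltransferase gene (0.11), and Eif4ebp1, which encodes an mTORC1 substrate (0.12). Ddit4 was nearest to Gm20109 (0.14), the sodium pump gene Atp1b1 (0.14) and the immediate early gene Nr4a1 (0.15). The nearest to Egln1 were Chd1l, Slc25a5 and Surf6 (0.06 to 0.08), to Hif1a Abhd10, Bod1 and Zfp26 (0.05), to Bnip3l Zfp287, Sptlc2 and Pabpn1 (0.06 to 0.08), and to P4ha1 Urgcp, Nosip and Hibadh (0.06 to 0.08). Of the genes outside the 9, Map2k6 (0.25) and Gm42504 (0.26) followed Scd1 for Egln3.

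Some markers of other cells moved with full-length ZNF384, as Bnip3, Pdk1 and Egln3 did, and the part of such cells in these results was not tested. In bulk RNA, fewer cells of a type and less RNA per cell cannot be told apart. The summed level of 7 erythroid markers was 221 to 224 CPM with TCF3-ZNF384, 233 to 252 CPM with TAF15-ZNF384, 366 to 380 CPM with full-length ZNF384 and 235 to 260 CPM with the empty vector, nearly all of it Tfrc (219 to 378 CPM), and the defining gene Alas2 was at 0 counts in every library. The 7 T cell markers summed to 62.4 to 69.1, 60.9 to 62.4, 122 to 137 and 64.6 to 69.0 CPM in the same order of groups, mainly Thy1 (36.4 to 115 CPM), with Cd8a at 0 in every library. Stromal and endothelial markers summed to 53.0 to 58.1, 47.9 to 51.0, 27.8 to 32.6 and 28.6 to 30.3 CPM, nearly all of it Pecam1 (27.4 to 57.3 CPM). This sum was higher with the fusions, where Egln1 was lower. Each other gene of that list reached at most 0.847 CPM in any library, the value of Col1a1. The 8 myeloid markers summed to at most 1.62 CPM in any library.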

How the data were processed

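Counts per gene were deposited as 1 table of 8 libraries, made by the authors on mm9 with HTSeq 0.6.1p1, per the submitters' processing notes, from TruSeq stranded total RNA libraries, per the labels' protocols. The aligner, the annotation and the strand setting are not given in the sources used here. The table was analysed with edgeR 4.0.16 under R 4.3.3: filterByExpr left 12970 genes, TMM scaled the libraries, and 1 robust quasi-likelihood model with a coefficient per group was fitted to all 8 libraries (4 residual degrees of freedom, biological coefficient of variation 0.0958). Tests were 2-sided, adjusted by Benjamini-Hochberg over the 12970 genes, with a threshold of 0.05 for "rose" and "fell". Log2 fold changes are given ± SE with n = 2 libraries a group, which the series design calls biological replicates. No libraries were duplicates (chi-square per gene between replicates 3.77 to 38.4). The pipeline was tested on simulated counts.

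The 9 genes and the pathway lists were chosen with earlier results of these data known. The text names the 9 genes, the tested HIF machinery, up to 3 genes per direction with the smallest adjusted p in each other list and comparison with the empty vector (part of these are printed), and the 3 genes nearest each of the 9. Gene spans and exon lengths come from GENCODE vM1 on mm9. Alternatives were DESeq2 1.42.0 (size factors, Wald test), limma-voom (limma 3.58.1), no filter, at least 2 CPM in 2 libraries, fits of only 2 groups, a replicate block, leaving out the 5 non-coding genes, total-count scaling without them, thinning, and leaving out each library.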

Additional observations from a re-analysis of the deposited data

How the results depend on the processing

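The 6 counts of called genes were recomputed under 18 alternatives each. They stayed within 1.5 times the main count in all 18 for TCF3-ZNF384 over the empty vector and for both comparisons with full-length ZNF384. Leaving out 1 library gave 3 to 6 for full-length ZNF384 over the empty vector (6 in the main analysis), 1 to 5 for TAF15-ZNF384 over the empty vector (4), and 0 to 5 for TCF3-ZNF384 over TAF15-ZNF384 (3), the last also 5 when only the 2 groups were fitted. Whether replicate numbers pair the libraries is not stated in the labels. Deviations between replicates correlated at 0.01 to 0.22 between groups, highest for TCF3-ZNF384 and the empty vector, which does not settle it. The column suffixes use the same numbers in the 3 construct groups and are absent for the empty vector. With the replicate block, the counts were 6, 6 and 4 for TCF3-ZNF384, full-length ZNF384 and TAF15-ZNF384 over the empty vector, 6 and 6 for TAF15-ZNF384 and TCF3-ZNF384 over full-length ZNF384, and 3 between the fusions. The 2 added calls were Ddit4 with TCF3-ZNF384, at -0.62 over the empty vector (adjusted p = 0.00666) and 0.51 over full-length ZNF384 (adjusted p = 0.0142).

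Total-count scaling without the 5 non-coding genes moved the median of all genes by 0.11 and 0.14 for TAF15-ZNF384 and TCF3-ZNF384 over the empty vector and by 0.14 and 0.17 for the same fusions over full-length ZNF384. Genes called higher and lower were then 1034 and 506 (650 and 780 by TMM) for TAF15-ZNF384 and 3013 and 1446 (2106 and 2211) for TCF3-ZNF384 over the empty vector, and 2724 and 1467 (2003 and 2317) and 3930 and 2064 (2883 and 3033) over full-length ZNF384. Under it the calls of Bnip3l and Ddit4 were lost for full-length ZNF384 over the empty vector (adjusted p = 0.0651 and 0.064) and for TAF15-ZNF384 over full-length ZNF384 (adjusted p = 0.0799 and 0.0816). The same scaling added a call of Bnip3l for TCF3-ZNF384 over the empty vector, at 0.51 (adjusted p = 0.017). Log2 fold changes that changed sign under it, none called, were Bnip3l 0.0291 for TAF15-ZNF384 and P4ha1 0.0886 for TCF3-ZNF384 over the empty vector, Hif1a 0.0793 for TAF15-ZNF384 over full-length ZNF384, Hif1a 0.0864 and Bnip3l 0.104 for TCF3-ZNF384 over full-length ZNF384, and Hif1a 0.0071 and Bnip3 0.0087 between the fusions. Numbers of called genes over the whole table ran from 1097 (limma-voom) to 2746 (fit of 2 groups) for TAF15-ZNF384 over the empty vector (1430 in the main analysis) and from 1018 to 2548 between the fusions (1308), and leaving out a library gave 404 to 2783 and 371 to 2361. For full-length ZNF384 and TCF3-ZNF384 over the empty vector, leaving out a library gave 1064 to 3814 (2675) and 2501 to 5372 (4317). For TAF15-ZNF384 and TCF3-ZNF384 over full-length ZNF384 it gave 2158 to 5333 (4320) and 3866 to 6558 (5916).

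Leaving out 1 library also turned the sign of differences that were called in neither fit. Over the empty vector these ran from -0.038 to 0.223 for Egln1 and -0.32 to 0.0137 for P4ha1 with full-length ZNF384, -0.0691 to 0.266 for P4ha1 and -0.249 to 0.0907 for Bnip3l with TAF15-ZNF384, and -0.179 to 0.078 for P4ha1 with TCF3-ZNF384. Over full-length ZNF384 they ran from -0.191 to 0.0398 for Hif1a with TAF15-ZNF384, and from -0.0577 to 0.276 for P4ha1 and -0.183 to 0.104 for Bnip3l with TCF3-ZNF384. Between the fusions they ran from -0.13 to 0.10 for Hif1a, -0.062 to 0.0286 for Bnip3 and -0.322 to 0.0134 for P4ha1. The calls of Bnip3, Pdk1 and Egln3 for full-length ZNF384 over the empty vector, and of Vegfa and Egln1 for TCF3-ZNF384 over the empty vector, held in all 18 alternatives. The cause of each change was not tested. With 2 libraries a group, the lone library of a group was taken to vary like the others when its partner was left out.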
